A study of Rattus norvegicus with 5 samples.

Results

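The transcripts described here are 36 genes that mark endothelial cells, the cells that line blood and lymph vessels, measured in the mesenteric fat around the pancreas of male Wistar rats. They were chosen by name from a list, and each was read through probe sets annotated with its symbol alone, taking for each gene the probe set with the highest mean over the 5 arrays. Of the 36 genes, 34 had such a probe set, and Robo4 and Cdh5 had none and have no values here. Flt4, a receptor of lymphatic growth factors, lay below the filter on dim probe sets, which keeps probe sets whose mean exceeds the 30th percentile. The 33 others were tested, among 11509 genes that passed the same filter.

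The samples were 2 from cafeteria-fed rats, whose food supplied 66% of its calories as fat and which the labels call the obese group, and 3 from rats given standard chow, at 8% of calories from fat, which they call the lean group. Both diets lasted 30 days and began at 7 weeks of age, and the rats were caged singly. Each array carried a sample that the labels call independent, and values are log2 expression levels on a GeneChip rat genome array. Unless a sentence says that a value is a level, it is a difference, cafeteria minus standard, on the log2 scale. The number of arrays limits the precision of every value.

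Endothelial cells form the inner wall of vessels, hold each other through junction proteins such as claudin 5 and PECAM1, and respond to vascular endothelial growth factors and angiopoietins through receptor tyrosine kinases. Transcription factors of the ETS family, including Erg, and the SOX factors Sox7, Sox17 and Sox18 are known to set endothelial identity and vessel growth in the embryo. In fat, capillaries also deliver lipid: Gpihbp1 carries lipoprotein lipase across the endothelial cell to the vessel lumen.

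Promoter windows are shown for Adgrl4, the member with the smallest p-value. They are also shown for the 3 next members by p-value that have a single RefSeq promoter with an ETS match. Whether ETS factors bear on the levels of these genes was not tested. Each window runs from 250 bases before the start of the gene to 50 bases after it, 5′ to 3′ on the strand of the gene, in RefSeq's GRCr8 build. Capitals mark AGGAAG or CGGAAG on either strand, the ETS letters searched. The windows are Adgrl4 at chr2:243014689-243014988 on the plus strand, Emcn at chr2:228564289-228564588 on the plus strand, Tie1 at chr5:137304932-137305231 on the minus strand and Plvap at chr16:18231230-18231529 on the minus strand.
Adgrl4: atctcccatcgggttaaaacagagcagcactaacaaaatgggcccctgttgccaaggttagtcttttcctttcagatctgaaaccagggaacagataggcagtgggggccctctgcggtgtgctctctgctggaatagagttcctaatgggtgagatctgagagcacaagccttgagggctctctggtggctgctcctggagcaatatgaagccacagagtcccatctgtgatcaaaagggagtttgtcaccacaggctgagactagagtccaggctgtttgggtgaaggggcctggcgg
Emcn: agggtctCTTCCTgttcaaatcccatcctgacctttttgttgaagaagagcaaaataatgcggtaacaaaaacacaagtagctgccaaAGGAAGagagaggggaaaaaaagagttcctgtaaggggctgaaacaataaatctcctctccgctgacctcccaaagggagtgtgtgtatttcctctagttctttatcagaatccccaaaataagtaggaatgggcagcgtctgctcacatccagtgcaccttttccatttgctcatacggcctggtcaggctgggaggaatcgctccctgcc
Tie1: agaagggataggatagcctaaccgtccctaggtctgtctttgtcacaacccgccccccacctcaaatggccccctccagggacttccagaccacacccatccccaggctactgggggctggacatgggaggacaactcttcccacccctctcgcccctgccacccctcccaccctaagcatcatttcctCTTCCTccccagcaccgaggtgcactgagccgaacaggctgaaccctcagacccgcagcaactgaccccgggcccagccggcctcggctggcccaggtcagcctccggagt
Plvap: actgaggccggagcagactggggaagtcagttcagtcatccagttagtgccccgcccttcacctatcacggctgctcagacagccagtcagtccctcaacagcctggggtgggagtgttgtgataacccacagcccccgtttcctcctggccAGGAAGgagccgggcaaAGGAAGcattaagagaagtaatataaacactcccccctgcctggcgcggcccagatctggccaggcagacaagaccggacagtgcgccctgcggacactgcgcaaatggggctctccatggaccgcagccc
The Emcn and Plvap windows hold 2 matches each and the Tie1 window holds 1, while the Adgrl4 window holds none of these letters. RefSeq windows were found for 20 of the 36 genes, with Egfl7 and Ecscr on several, 23 windows in all. Of these 23, 12 held an ETS match, which is 52.2%, against 45.5% of all 33469 promoter windows of this length. ACAATG or ACAATA, letters bound by SOX factors, stood in 5 of the 23, or 21.7%, against 21.4% of all windows. The GATA letters AGATAA stood in 1, or 4.35%, against 11.6%. Either strand counted for each motif, and no motif's letters contain another's. These shares describe the windows, and no binding was measured.

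The 33 tested endothelial genes all had a lower mean in cafeteria than in standard samples, but none was past the threshold after adjustment over all probe sets (limma, smallest adjusted p = 0.171, for Adgrl4). Their median difference was -0.38, and the differences ran from -0.76 for Sox17 to -0.08 for Eng, beside a median of -0.003 over all genes tested, of which 50.8% had a difference below 0. At an unadjusted p under 0.05, 11 of the 33 were lower and 0 higher, where 6.88% of all genes were lower and 6.73% higher. In 16 of the 33 genes the higher cafeteria array was under the lowest standard array, beside 14.7% of all genes. For those 16 an exact permutation test of the diet labels, two-sided, gave p = 0.1, the smallest that 2 against 3 samples allow. The 16 were picked for that separation, which nearly fixes this p, so the test adds nothing to the count. In bulk tissue, fewer endothelial cells and less RNA of these genes per cell cannot be told apart. The plot of differences between diets ranks the genes by size.

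**Figure D1:**
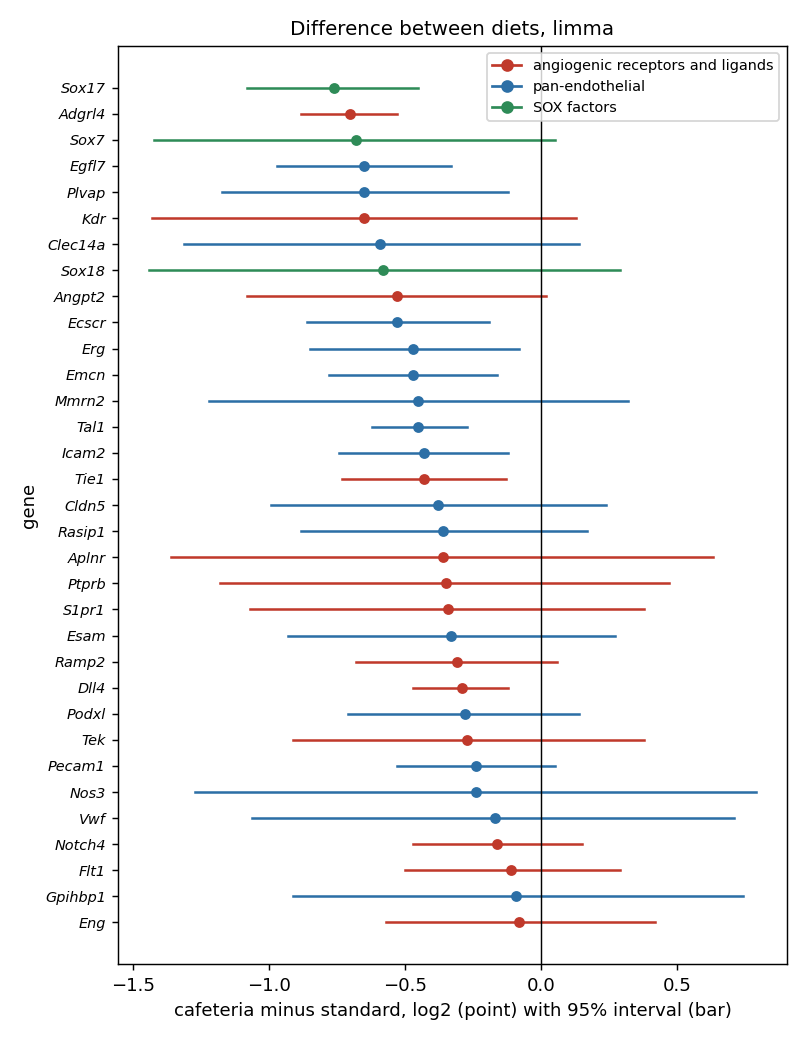
Difference between diets for the 33 tested endothelial genes, cafeteria minus standard on the log2 scale (point), with the 95% interval of the limma fit (bar) and colour by class. All 33 points lie below 0, from -0.76 for Sox17 to -0.08 for Eng, and the intervals of 11 genes end below 0.

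How much each gene was lower depended on the cafeteria array. Cafeteria replicate 1 was the lowest of the 5 arrays for 32 of the 33 genes, beside 19.2% of all genes. The exception was Podxl, an anti-adhesive sialomucin of the vessel lumen, which was lowest in cafeteria replicate 2. Cafeteria replicate 2 lay below all standard arrays for 17 genes, beside 31.7% of all genes, and above all standard arrays for 5, beside 29.9%. The 5 were Flt1, Tek, Eng, Nos3 and Gpihbp1. The median over the 33 genes was -0.66 for cafeteria replicate 1 minus the standard mean and -0.18 for cafeteria replicate 2 minus the standard mean. Between the cafeteria arrays the median gap was -0.46, replicate 1 minus replicate 2, and for 23 of the 33 genes this gap exceeded the range of the 3 standard arrays.

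**Figure D2:**
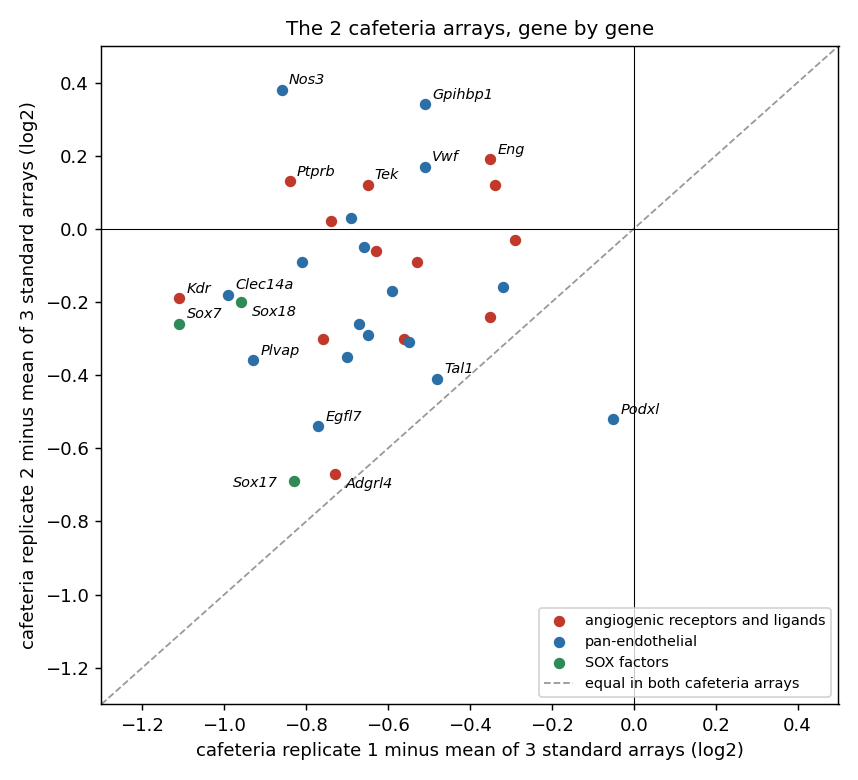
Each point is 1 endothelial gene, placed by cafeteria replicate 1 (horizontal axis) and cafeteria replicate 2 (vertical axis), each minus the mean of the 3 standard arrays on the log2 scale. Adgrl4 at -0.73 and -0.67 and Sox17 at -0.83 and -0.69 lie near the dashed line of equality, Kdr at -1.11 and -0.19 lies far above it, and Podxl at -0.05 and -0.52 is the only point below it.

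Leaving out cafeteria replicate 1 gave a median difference of -0.18 and 24 of 33 genes lower, with 8 genes lower at an unadjusted p under 0.05, beside 9.96% of all probe sets in that fit. Leaving out cafeteria replicate 2 gave -0.66 and 33 of 33, with 21 genes lower at that p, beside 8.87% of all probe sets. In both fits the lone cafeteria sample is assumed to vary like the standard samples.

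The SOX factors had the most negative median of the 3 classes, -0.68 over Sox7, Sox17 and Sox18, against -0.43 over 17 pan-endothelial genes and -0.34 over 13 angiogenic receptors and ligands. The difference between the classes was not tested. Sox17, a factor of arterial endothelium, had levels of 7.95 and 8.09 in cafeteria samples, against 8.94, 8.61 and 8.81 in standard samples. Both cafeteria samples were low by similar amounts and the groups did not overlap. The difference was -0.76 ± 0.12 (SE), with a 95% interval of -1.08 to -0.45 (limma, adjusted p = 0.229). Another probe set of Sox17 past the filter gave -0.79 ± 0.25, and one below the filter gave 0.11.

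Sox7 had levels of 7.69 and 8.53 in cafeteria samples, against 8.94, 8.81 and 8.64 in standard samples. The groups did not overlap, but cafeteria replicate 2 lay only just under the lowest standard sample. The difference was -0.68 ± 0.28 (limma, adjusted p = 0.418), and leaving out cafeteria replicate 1 made it -0.26 and leaving out cafeteria replicate 2 made it -1.11. Sox18, which acts in blood and lymph vessel development, had levels of 8.09 and 8.84 in cafeteria samples, against 9.45, 8.93 and 8.74 in standard samples. Here cafeteria replicate 2 lay within the standard range, and standard replicate 1 was the highest array. The Sox18 difference was -0.58 ± 0.32 (limma, adjusted p = 0.500), and -0.20 without cafeteria replicate 1. Standard replicate 1 was the highest of the 5 arrays for all 3 SOX genes, and it is the array that also held acinar transcripts, described further on. Without it the SOX median was -0.61.

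The other transcription factors on the list, Erg and Tal1, also lay lower in both cafeteria samples. Tal1, a factor of blood and endothelial precursors, had levels of 6.87 and 6.94 in cafeteria samples, against 7.37, 7.28 and 7.41 in standard samples. The groups were separate and each was tight. Its difference was -0.45 ± 0.06, the second smallest p of the members (limma, adjusted p = 0.224). A dimmer Tal1 probe set gave 0.03 ± 0.05. Erg, an ETS factor that maintains endothelial junctions, had levels of 7.41 and 7.82 in cafeteria samples, against 7.97, 8.10 and 8.15 in standard samples. The cafeteria samples differed from each other more than the standard samples did. The difference was -0.47 ± 0.14 (limma, adjusted p = 0.336), it was -0.26 without cafeteria replicate 1, and another probe set gave -0.32 ± 0.12.

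**Figure D3:**
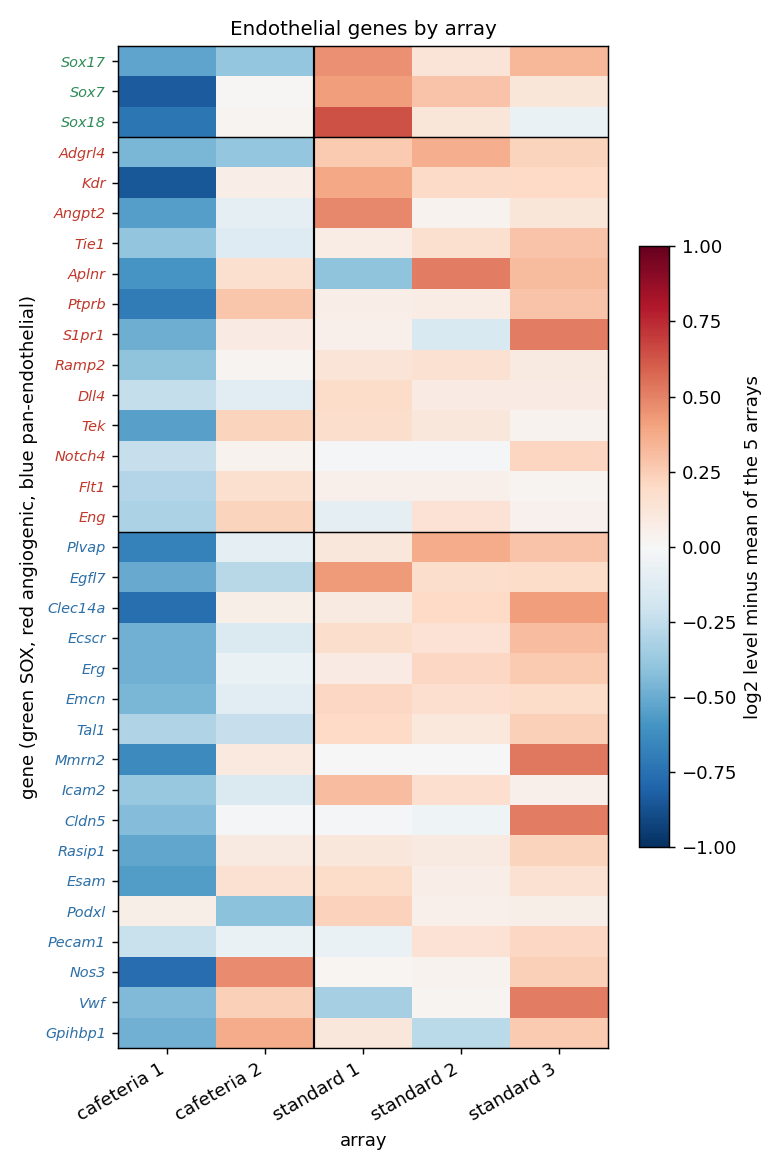
Level of each of the 33 tested endothelial genes in each array, as the log2 level minus the gene's mean over the 5 arrays (blue lower, red higher), with cafeteria arrays left of the line and standard arrays right of it. Cafeteria replicate 1 is the lowest array in 32 of 33 rows, cafeteria replicate 2 lies above all standard arrays in 5, and standard replicate 3 is the highest array in 13.

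Among the receptors of vascular endothelial growth factors and angiopoietins, the 4 tested had a median of -0.35. Kdr, the main signalling receptor for vascular endothelial growth factor A, had levels of 8.67 and 9.59 in cafeteria samples, against 9.91, 9.71 and 9.72 in standard samples. Cafeteria replicate 1 was far below every other array, while cafeteria replicate 2 lay just under the standard samples. The difference was -0.65 ± 0.29 (limma, adjusted p = 0.455), and it was -0.19 with cafeteria replicate 2 alone and -1.11 with cafeteria replicate 1 alone. Tie1, an orphan partner of the angiopoietin receptor, had levels of 7.18 and 7.44 in cafeteria samples, against 7.65, 7.73 and 7.86 in standard samples. Its groups did not overlap, and the difference was -0.43 ± 0.11 (limma, adjusted p = 0.299).

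Tek, the angiopoietin receptor itself, had levels of 8.90 and 9.67 in cafeteria samples, against 9.62, 9.56 and 9.48 in standard samples. Cafeteria replicate 1 was the lowest array and cafeteria replicate 2 the highest, so the mean difference of -0.27 ± 0.24 turned to 0.12 without cafeteria replicate 1 (limma, adjusted p = 0.612 over all arrays). Flt1, a receptor that also exists as a soluble decoy for the growth factor, was read by 3 probe sets that differed in size. The probe set with the highest mean had levels of 5.99 and 6.45 in cafeteria samples, against 6.34, 6.34 and 6.31 in standard samples, a difference of -0.11 ± 0.15. In the other Flt1 probe sets both cafeteria samples lay below all standard samples, with differences of -0.46 ± 0.11 and -0.55 ± 0.19. Which transcripts of Flt1 each probe set reads is not given in the sources used here. Flt4 read 3.98 and 3.98 in cafeteria samples, against 3.96, 3.98 and 4.24 in standard samples, under the filter level of 4.283.

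Angpt2, the angiopoietin that endothelial cells release during vessel remodelling, had levels of 7.61 and 8.07 in cafeteria samples, against 8.64, 8.19 and 8.28 in standard samples. Both cafeteria samples were below all standard samples. The difference was -0.53 ± 0.21 (limma, adjusted p = 0.407), and -0.30 without cafeteria replicate 1. Dll4, the Notch ligand of tip cells and arteries, had levels of 6.82 and 6.94 in cafeteria samples, against 7.24, 7.14 and 7.14 in standard samples. Both cafeteria samples were lower, by -0.35 and -0.24 against the standard mean. The difference was -0.29 ± 0.07 (limma, adjusted p = 0.276), and another Dll4 probe set gave -0.35 ± 0.12. The endothelial Notch receptor Notch4 differed by -0.16 ± 0.12, and its 2 dimmer probe sets gave 0.18 and 0.07, so its direction was not the same across probe sets.

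Adgrl4, an adhesion G protein-coupled receptor of the endothelium, had the smallest p of all members. Its levels were 7.78 and 7.85 in cafeteria samples, against 8.50, 8.60 and 8.46 in standard samples. The cafeteria samples lay close together and apart from the standard samples. The difference of -0.70 ± 0.07 corresponds to a 1.63-fold lower level, with a 95% interval of -0.88 to -0.53 (limma, adjusted p = 0.171), and it ran from -0.73 to -0.66 when single arrays were left out. The other receptors were less uniform. Ramp2, which pairs with the calcitonin receptor-like receptor to bind adrenomedullin, differed by -0.31 ± 0.14, and its cafeteria samples lay below the standard ones at 9.17 and 9.60, against 9.70, 9.72 and 9.66. The phosphatase Ptprb, which restrains the angiopoietin receptor, differed by -0.35 ± 0.31, the sphingosine 1-phosphate receptor S1pr1 by -0.34 ± 0.27, the apelin receptor Aplnr by -0.36 ± 0.37 and the TGF-beta co-receptor Eng by -0.08 ± 0.19. For these 4 genes the groups overlapped, and without cafeteria replicate 1 the differences were 0.13 for Ptprb, -0.06 for S1pr1, 0.02 for Aplnr and 0.19 for Eng.

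Of the 11 junction and surface genes, the 10 with a probe set had a median of -0.40. Emcn, the sialomucin endomucin of capillaries and veins, had levels of 9.32 and 9.67 in cafeteria samples, against 9.98, 9.94 and 9.96 in standard samples. The 3 standard samples were almost equal, and both cafeteria samples were lower by unequal amounts. The difference was -0.47 ± 0.12 (limma, adjusted p = 0.293), and -0.29 without cafeteria replicate 1. Ecscr, a surface protein of endothelial migration and signalling, had levels of 8.03 and 8.37 in cafeteria samples, against 8.69, 8.66 and 8.82 in standard samples. Its groups were separate, at a difference of -0.53 ± 0.13 (limma, adjusted p = 0.281), and it was -0.35 without cafeteria replicate 1.

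Plvap, which forms the diaphragms of capillary fenestrae and caveolae, had levels of 9.32 and 9.90 in cafeteria samples, against 10.11, 10.37 and 10.28 in standard samples. The groups did not overlap, and the difference of -0.65 ± 0.20 (limma, adjusted p = 0.336) was -0.36 without cafeteria replicate 1. Icam2, an adhesion molecule for leukocytes that platelets also carry, had levels of 9.34 and 9.58 in cafeteria samples, against 10.03, 9.89 and 9.77 in standard samples. Its difference was -0.43 ± 0.12 (limma, adjusted p = 0.306), while a dimmer Icam2 probe set gave -0.06 ± 0.18 with overlapping groups.

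Pecam1, the most widely used endothelial marker, had levels of 8.61 and 8.77 in cafeteria samples, against 8.77, 8.98 and 9.04 in standard samples. Cafeteria replicate 2 equalled standard replicate 1 to the digits shown, and the difference was only -0.24 ± 0.11 (limma, adjusted p = 0.458). Clec14a, a lectin-like receptor of vessel sprouting, differed by -0.59 ± 0.27, with both cafeteria samples below the standard ones but -0.18 without cafeteria replicate 1. The junction genes Esam and Cldn5 differed by -0.33 ± 0.23 and -0.38 ± 0.23, and the groups overlapped for both. Gpihbp1 was the member of this group with the smallest difference, -0.09 ± 0.31. It had levels of 9.12 and 9.97 in cafeteria samples, against 9.71, 9.33 and 9.86 in standard samples, so the cafeteria samples were the lowest and the highest of all arrays. Podxl differed by -0.28 ± 0.16, and its dimmer probe sets by 0.17 and -0.28.

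Among the secreted and intracellular members, Egfl7 stood apart. Egfl7, a matrix protein that endothelial cells secrete during tube formation, had levels of 8.08 and 8.31 in cafeteria samples, against 9.01, 8.76 and 8.77 in standard samples. Both cafeteria samples were low, and the difference was -0.65 ± 0.12, a 1.57-fold lower level (limma, adjusted p = 0.253), with another probe set at -0.44 ± 0.13. Vwf, the clotting protein stored in endothelial granules, had levels of 8.40 and 9.08 in cafeteria samples, against 8.51, 8.87 and 9.35 in standard samples. Its groups overlapped and its standard samples ranged widely, with a difference of -0.17 ± 0.33 that was 0.17 without cafeteria replicate 1 and 0.05 without standard replicate 3. Nos3, the nitric oxide synthase of endothelium, read 5.78 and 7.02 in cafeteria samples, against 6.56, 6.58 and 6.78 in standard samples. This was the widest gap between the cafeteria arrays among the members, and the difference of -0.24 ± 0.39 was 0.38 without cafeteria replicate 1. The matrix protein Mmrn2, a ligand of Clec14a, differed by -0.45 ± 0.29 and the junction regulator Rasip1 by -0.36 ± 0.20, each with overlapping groups, and a dimmer Rasip1 probe set gave 0.21 ± 0.07.

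Across all members, 15 further probe sets of 12 genes passed the filter. Of the 15, 10 were lower in cafeteria samples, beside 50.8% of all genes tested, each read on its brightest probe set. Of the 33 genes, 8 had the same level, to 6 decimals, on 2 arrays. Where the 2 arrays are of the same diet, this can make the SE too small. For Pecam1, Cldn5, Podxl and Rasip1 they were of different diets.

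Partner genes outside the list differed by family. Of 17 endothelial transcription factors and ETS, GATA and KLF genes tested, 13 were lower and 8 of them at an unadjusted p under 0.05, with a median of -0.33 and 0 past the adjusted threshold in limma. Of all genes tested, 50.8% had a difference below 0 and 6.88% were lower at that unadjusted p. Ets1, an ETS factor that lymphocytes also express, had levels of 9.15 and 9.34 in cafeteria samples, against 9.85, 9.85 and 9.80 in standard samples. The groups were clearly separate, at a difference of -0.59 ± 0.08 (limma, adjusted p = 0.222). Gata2, which mast cells express too, differed by -0.60 ± 0.10, Ets2 by -0.54 ± 0.13 and Elk3 by -0.31 ± 0.08. Of 13 Notch, arterial and related genes, 12 were lower, beside 50.8% of all genes. At that p 4 were lower and 1 was higher, beside 6.88% of all genes lower and 6.73% higher. Hey1, a target of Notch signalling, had levels of 7.30 and 7.50 in cafeteria samples, against 8.20, 8.03 and 8.21 in standard samples. Its difference was -0.74 ± 0.10 (limma, adjusted p = 0.222), Notch1 differed by -0.52 ± 0.15 and the gap junction gene Gja4 by -0.59 ± 0.19, while Heyl lay higher by 0.56 ± 0.14.

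The ligands and co-receptors of the same pathways had a median of -0.05 over 16 genes, with 9 lower and 7 higher, 1 of them lower at an unadjusted p under 0.05, beside 6.88% of all genes. That gene was Nrp2, a co-receptor of vascular endothelial growth factors and semaphorins, which differed by -0.52 ± 0.15 (limma, adjusted p = 0.324). Calcrl, the partner of Ramp2, differed by -0.40 ± 0.23, Nrp1 by -0.12 ± 0.07 and Apln, the ligand of Aplnr, by -0.18 ± 0.12, none of them at that p.

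Markers of neighbouring cells also differed between the arrays, and their part in the endothelial differences was not tested. Mural genes, of the smooth muscle cells and pericytes that wrap vessels, had a median of -0.67, with 9 of 12 lower, beside 50.8% of all genes. The mean level of the 12 was 8.36 and 8.39 in cafeteria samples, against 8.85, 8.23 and 9.61 in standard samples, so standard replicate 3 was the high array and standard replicate 2 lay below both cafeteria samples. The pericyte channel genes Kcnj8 and Abcc9 differed by -0.95 ± 0.15 and -0.50 ± 0.11 and Rgs5 by -0.71 ± 0.23, while Cspg4 lay higher by 0.73 ± 0.24. Without standard replicate 3 the endothelial median was -0.32. Lymphatic genes had a median of -0.30 with 4 of 6 lower, beside 50.8% of all genes. Mmrn1 differed by -0.37 ± 0.08, Lyve1 by -0.40 ± 0.18, Pdpn by -0.38 ± 0.25 and Reln by -0.22 ± 0.11. Prox1, the transcription factor of lymphatic identity, lay higher by 0.17 ± 0.10 and the chemokine Ccl21 by 0.08 ± 0.11.

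All 14 adipocyte genes passed the filter, and 13 were higher, with a median of 0.37. Of these, 10 were higher at an unadjusted p under 0.05, beside 6.73% of all genes. Their mean level was 11.86 and 12.07 in cafeteria samples, against 11.38, 11.57 and 11.56 in standard samples. Lep differed by 1.59 ± 0.20, the fatty acid ligase Acsl1 by 0.46 ± 0.08, the lipid droplet gene Plin4 by 0.84 ± 0.15 and the glycerol channel Aqp7 by 0.37 ± 0.09. Both cafeteria samples were thus higher on adipocyte genes, with cafeteria replicate 2 above cafeteria replicate 1 as it was for most endothelial genes.

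**Figure D4:**
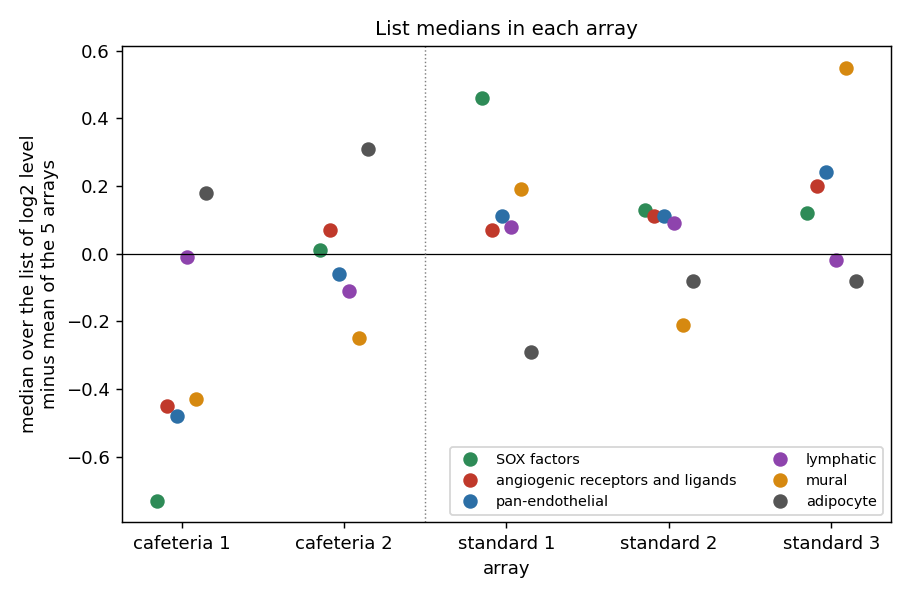
Median over each list of the log2 level minus the gene's mean over the 5 arrays, by array, for the 3 endothelial classes and for lymphatic, mural and adipocyte genes. In cafeteria replicate 1 the SOX, angiogenic and pan-endothelial medians are -0.73, -0.45 and -0.48, in cafeteria replicate 2 they are 0.01, 0.07 and -0.06, and the mural median is highest in standard replicate 3, at 0.55.

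Transcripts of pancreatic acinar cells, which make digestive enzymes, had their highest list mean in standard replicate 1. The mean level of the 18 acinar genes on the array was 4.61 and 4.51 in cafeteria samples, against 7.90, 4.35 and 4.41 in standard samples, and 14 of the 18 passed the filter. Some acinar genes were also high elsewhere: Cela3b read 9.52 and 6.46 in cafeteria samples, against 9.86, 9.70 and 8.88 in standard samples, and Cpa1 read 7.38 and 9.07 in cafeteria samples, against 9.37, 5.34 and 5.94 in standard samples. The endothelial median was as large without standard replicate 1, at -0.39. In that fit 12 genes were lower at an unadjusted p under 0.05, beside 5.06% of all probe sets. With the mean acinar level as a covariate the endothelial median was -0.41. That level was 7.90 in standard replicate 1 and 4.35 to 4.61 in the other arrays, so the covariate fit nearly repeats the fit without it. The list of red cell and platelet genes had mean levels of 7.19 and 7.35 in cafeteria samples, against 7.18, 7.20 and 7.12 in standard samples. The globin gene Hbb read 12.58 and 13.22 in cafeteria samples, against 12.78, 12.64 and 12.71 in standard samples, so cafeteria replicate 2 was the high array.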

How the data were processed

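The authors deposited 1 log2 expression value per probe set and array, for 31099 probe sets. Per the submitters' processing notes they used RMA and the affy package, versions not given in the sources used here. RMA corrects background, makes array distributions alike and summarises probes, which can hide a shift common to most transcripts. The diet in each title set the groups.

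From these values, 57 control probe sets were left out, and 21729 probe sets with a mean above the 30th percentile entered a linear model per probe set with moderated variance (limma 3.58.1, R 4.3.3), as cafeteria minus standard and two-sided. P-values were adjusted by Benjamini-Hochberg over all of them and read at 0.05. Residual degrees of freedom were 3, and the variance prior added 1.50. The fit was also run on simulated data in which probe sets varied independently, whereas the members here moved together by array. Shifts in that run were larger than any member difference, so it gives no check for differences of this size. Each limma p-value sets a difference against the spread between samples of the same diet, moderated by the variance prior. Over all probe sets except controls, arrays correlated at 0.987 to 0.994, and they had medians of 5.70 to 5.75.

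Symbols came from GEO's platform annotation, which named 20826 probe sets with 1 symbol and 436 with several, and left 9780 unnamed here. Promoter windows are RefSeq's. Members, classes and other lists were chosen with earlier results of these data known, so their counts are descriptions. All members could be named. Values in every array were set for the 12 members with the smallest p, the SOX genes, the receptors of growth factors and angiopoietins, Pecam1 and Vwf, and are given for some others chosen after their values were seen. Of each other list, genes among the 4 with the smallest p are named, and also Pdpn, Ccl21 and Hbb. Sele is named as below the filter. Alternatives were other filters, normalizations, variance models, array weights, probe sets, gene summaries, an acinar covariate, a replicate block, and fits without 1 array each. Figures used matplotlib 3.10.9 in Python 3.11.15.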

Additional observations from a re-analysis of the deposited data

How the results depend on the processing

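No probe set and no member passed the adjusted threshold in limma under any of the alternatives, nor in the test without moderated variance. All 33 members were lower under both other normalizations, both other filters, the other variance models, array weights and the acinar covariate, as were the 30 members left without probe sets marked as reading several transcripts, which removes Adgrl4, Kdr and Podxl. Averaging all probe sets of a gene turned Notch4 to 0.03 and also moved Rasip1 to -0.07, Tal1 to -0.21, Podxl to -0.13, Icam2 to -0.25 and Flt1 to -0.37. Without moderated variance, 16 genes of the other lists had an unadjusted p under 0.05, beside 1874 of 21729 probe sets. With moderated variance 29 genes of those lists did, in either direction, and 10 of the 29 were adipocyte genes that were higher. The lists held 16, 13, 17, 4, 6, 12, 14, 6 and 14 tested genes. Of all genes, 6.88% were lower and 6.73% higher at that p. The replicate numbers are shared only by replicates 1 and 2 and nothing in the labels pairs them. Deviations of same-numbered samples correlated at 0.079 for replicate 1 and -0.037 for replicate 2. With a replicate block, which drops standard replicate 3 from the comparison, the median was -0.32, and Gpihbp1 and Vwf turned to 0.03 and 0.05. In that fit 8 members were lower at an unadjusted p under 0.05, beside 2206 of 21729 probe sets at that p in either direction.

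With single arrays left out, the extremes came from the cafeteria arrays unless said otherwise. The count of members lower at an unadjusted p under 0.05 ranged from 8 to 21, with 8 also without standard replicate 2, and that of members with cafeteria below all standard arrays from 17 to 32, with 17 also without standard replicate 2 or 3. Without standard replicate 2, 1981 of 21729 probe sets had that p in either direction. With 1 cafeteria array left, only that array need lie below all standard arrays. Cafeteria replicate 2 did so in 31.7% of all genes, and both cafeteria arrays in 14.7%. With fewer standard arrays this separation is also easier, and its share of all genes was not computed. The separation counts are thus not comparable with the 16 of the main fit. The median difference ranged from -0.66 to -0.18 over all members, from -0.63 to -0.06 in the angiogenic class, from -0.66 to -0.18 in the pan-endothelial class and from -0.96 to -0.26 for SOX genes. The 9 members that changed direction, all without cafeteria replicate 1, ranged from -0.34 to 0.12 for Flt1, -0.65 to 0.12 for Tek, -0.35 to 0.19 for Eng, -0.74 to 0.02 for Aplnr, -0.84 to 0.13 for Ptprb, -0.69 to 0.03 for Esam, -0.51 to 0.34 for Gpihbp1, -0.51 to 0.17 for Vwf and -0.86 to 0.38 for Nos3. Gpihbp1 and Vwf also did so without standard replicate 3, at 0.03 and 0.05. The cause was not tested.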

Other observations

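Genes of activated endothelium, which bind leukocytes, had a median difference of -0.13, and Sele lay below the filter. Of the 4 tested, 4 were lower, beside 50.8% of all genes. At an unadjusted p under 0.05 in limma 0 were lower, beside 6.88% of all genes. Selp, the P-selectin of endothelial granules and platelets, read 7.16 and 6.43 in cafeteria samples, against 7.73, 7.36 and 6.84 in standard samples, a difference of -0.52 ± 0.36 with overlapping groups. Vcam1 differed by -0.20 ± 0.18, Icam1 by -0.04 ± 0.08 and the venular chemokine receptor Ackr1 by -0.06 ± 0.22. For Selp and Vcam1 the lowest array was cafeteria replicate 2, whereas cafeteria replicate 1 was lowest for 32 of the 33 endothelial genes.

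Of the red cell and platelet genes, Alas2, the first enzyme of heme synthesis in red cells, read 7.78 and 8.47 in cafeteria samples, against 7.68, 7.78 and 7.77 in standard samples. The platelet integrin Itga2b differed by 0.12 ± 0.07, the band 3 gene Slc4a1 by 0.15 ± 0.11 and Gp9 by -0.12 ± 0.09. Of the 6 tested, 0 had an unadjusted p under 0.05 in limma, beside 6.88% of all genes lower and 6.73% higher.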
